A study of Mus musculus with 5 samples.

Results

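T cells and natural killer (NK) cells made up 236 of the 36720 cells kept in a single-cell RNA study of cells that had been sorted as neutrophils. They were found by their own transcripts, counted as unique molecular identifiers (UMIs), each of which marks 1 captured mRNA molecule. A cell with no UMI of the B cell genes Cd79a and Ms4a1 was taken as a T cell where Cd3e, Cd3d and Cd3g together gave at least 2 UMIs. It was taken as an NK cell where those genes gave fewer than 2 UMIs and Ncr1, Klrb1c, Gzma and Klre1 together gave at least 3. The rule found 139 T cells, 79 in a pool named YO2 and 60 in a pool named YO1, and 97 NK cells, 9 in YO2 and 88 in YO1. Because measured values chose the cells, levels of T cells, NK cells and all other cells are set beside each other as descriptions, with no test.

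The study captured live (DAPI-negative) cells positive for the surface proteins CD11b and Ly6G, the usual sort for mouse neutrophils, from lung, liver, spleen, intestine, blood and bone marrow of C57BL/6 mice kept pathogen-free at steady state. The mice were 20 months old or young; the sample labels give the young age as 10 weeks, and the study design gives it as 8 weeks. Cells were captured with BD Rhapsody, which places cells with barcoded beads in small wells, and ages and tissues were mixed in each of the 2 pools. Every group carried the same sort and no engineered allele, and how many mice stand behind each pool is not given in the sources used here. Counts analysed here carry the pool of a cell and not its age or tissue, so age, tissue and animal cannot be told apart in any value below.

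A T cell recognises antigen through a receptor of an alpha chain (constant gene Trac) and a beta chain (Trbc1, Trbc2), or of gamma and delta chains (Trdc and the Tcrg genes). The receptor signals through the CD3 proteins and the kinase Lck. CD8 and CD4 are its coreceptors, used by killer and helper T cells. NK cells rearrange no receptor. In the mouse they carry activating receptors such as NKp46 (Ncr1) and NK1.1 (Klrb1c) and the Ly49 family (the Klra genes), many of which bind MHC class I, and they kill with perforin (Prf1) and granzymes (Gzma, Gzmb) held in granules. Both cell types circulate through blood, spleen, liver and lung, and NK cells and some T cells carry CD11b on their surface.

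The summed T cells held 299581 UMIs in YO2 and 150976 in YO1, the NK cells 26943 in YO2 and 160499 in YO1, and the remaining cells 40949567 in YO2 and 39131684 in YO1. A T cell had a median of 3255 UMIs in YO2 and 1974 in YO1, an NK cell 2850 and 1448, and another cell 1452 and 1227. Levels are given as CPM, the UMIs of a gene in a summed group scaled to the same total in every group. Intervals are exact 95% intervals and cover counting error only, since each pool is 1 library. The pools shared 406 cell-label numbers, none of them among the 236 cells.

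The CD3 rule joined 2 unlike sets of cells. Counted over the other 17 genes of a list of T cell receptor (TCR) and signalling genes, 94 of the 139 T cells had between 6 and 51 UMIs, with a median of 20. The other 45 cells had at most 2, and 43 of them had none. The 94 cells, called TCR+ T cells below, had Cd3e in 82 cells, Cd3d in 67 and Cd3g in 67, and a median of 5 CD3 UMIs. The 45 cells, called CD3-only cells, had no UMI of Cd3e. They held 75 UMIs of Cd3d in 38 cells and 19 of Cd3g in 12 cells, and 42 of the 45 had exactly 2 CD3 UMIs, the least the rule allows. Their neutrophil transcripts were high: S100a8 and S100a9, calcium-binding proteins that fill the neutrophil cytosol, took a median of 4.92% of a CD3-only cell's UMIs in YO2 and 8.72% in YO1, against 0.0448% and 0.0975% in a TCR+ cell. Mitochondrial transcripts took a median of 0.641% in YO2 and 0.902% in YO1 of a CD3-only cell, near the 0.540% and 0.894% of the remaining cells, against 7.98% and 8.39% in TCR+ T cells and 4.57% and 4.73% in NK cells. The data therefore go against the label for the 45 CD3-only cells, which are given by their rule alone, and the split into 94 and 45 was made after their values were seen.

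Of 457 cells with 1 CD3 UMI, left out by the rule, 16 had at least 6 UMIs of the other TCR genes, against 12 of the 54 T cells with 2 CD3 UMIs and 15 of the 17 with 3. The 457 single UMIs were 345 of Cd3d, 101 of Cd3g and 11 of Cd3e. Outside the members, 191 cells had at least 6 UMIs of those 17 genes, 129 in YO2 and 62 in YO1, and 174 of them had no CD3 UMI. Cd2, an adhesion receptor that other leukocytes can express, gave 77.3% of their UMIs of the list, against 4.07% in TCR+ cells. Of the 191 cells 166 had no UMI of Trac, Trbc1 or Trbc2, against 0 of 94 TCR+ cells. With no B cell gene, 26 cells outside the members had at least 2 UMIs of Trac, Trbc1 and Trbc2, 16 in YO2 and 10 in YO1, and 14 of them had no CD3 UMI. The NK threshold fell in a gap: 10 cells had 2 UMIs of its genes, 1 had 3 and 1 had 4. Of the 97 NK cells, 95 had at least 3 UMIs of 23 other NK receptor and Ly49 genes, with medians of 19 in YO2 and 14 in YO1. A B cell gene left out 2 cells that met the T threshold and 1 that met the NK threshold.

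**Figure D1:**
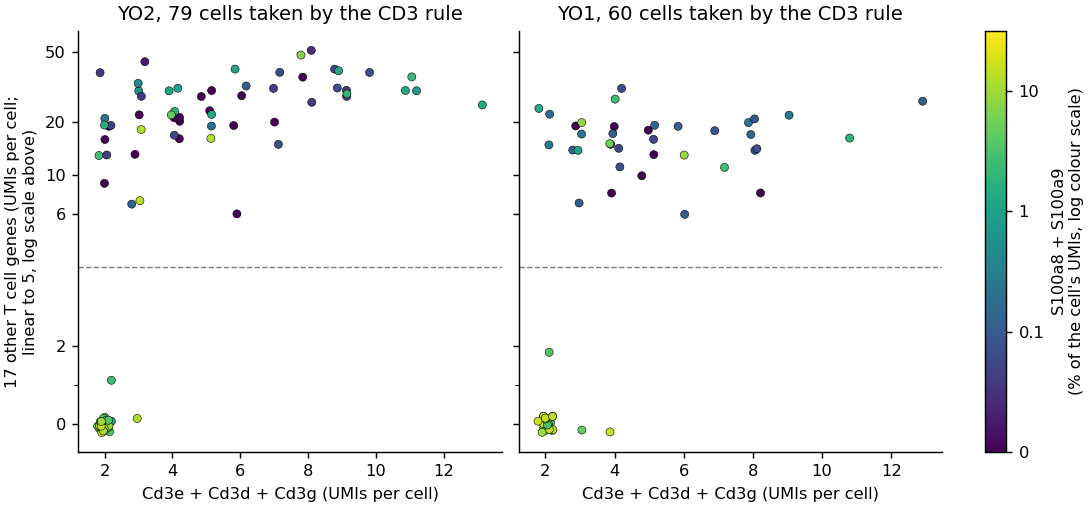
Each point is a cell of the CD3 rule, with its summed Cd3e, Cd3d and Cd3g UMIs across and its UMIs of 17 other T cell receptor and signalling genes upwards (points moved slightly apart), YO2 on the left and YO1 on the right; colour is the percentage of its UMIs from S100a8 and S100a9. The 94 TCR+ cells lie at 6 or more UMIs of the other genes and the 45 CD3-only cells at 2 or fewer.

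The promoters of Cd3d and Cd3e are shown because these neighbouring genes parted the sets: Cd3d was found in both, and Cd3e in TCR+ cells alone. Cd3d lies at chr9:44981786-44987339 on the + strand and Cd3e at chr9:44998740-45009627 on the - strand of GRCm38, where an antisense gene overlaps Cd3e; whether the counting used strand is not given in the sources used here. Each line gives the 250 bases before the RefSeq start of the gene (GRCm38.p6), read on the gene's strand, with capitals for matches on either strand to GGAAGT, a core bound by ETS factors, CTTTGA, a core bound by TCF and LEF factors, and TGTGGT, a core bound by RUNX factors.
Cd3d, chr9:44981536-44981785, + strand: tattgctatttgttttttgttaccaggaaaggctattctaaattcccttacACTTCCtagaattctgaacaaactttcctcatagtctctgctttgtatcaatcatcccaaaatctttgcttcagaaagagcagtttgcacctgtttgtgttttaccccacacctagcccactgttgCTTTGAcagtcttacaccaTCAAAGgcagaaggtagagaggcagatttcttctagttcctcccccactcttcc
Cd3e, chr9:45009612-45009861, - strand: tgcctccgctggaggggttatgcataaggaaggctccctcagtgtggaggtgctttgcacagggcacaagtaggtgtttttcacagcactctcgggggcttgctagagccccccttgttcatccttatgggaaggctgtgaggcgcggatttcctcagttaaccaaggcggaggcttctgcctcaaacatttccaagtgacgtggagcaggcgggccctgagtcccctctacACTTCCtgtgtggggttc
The Cd3d window holds an ETS match beginning 199 bases before the start and TCF and LEF matches beginning 73 and 54 bases before it, and the Cd3e window an ETS match beginning 18 bases before it. No matches overlap. Among all 32851 windows of this length, 19.7% hold the ETS letters, 13.8% the TCF and LEF letters and 14% the RUNX letters. Of 11 TCR-list genes with a window, 7 hold the ETS letters, against 22.2% of all genes. A match describes letters and is not a site.

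T cells were 0.459% of the kept cells in YO2 (79 of 17215, interval 0.363% to 0.572%) and 0.308% in YO1 (60 of 19505, 0.235% to 0.396%), a ratio of 1.49 (1.05 to 2.12). The TCR+ cells carried that ratio: 57 were found in YO2 and 37 in YO1, a ratio of 1.75 (1.13 to 2.72), against 22 and 23 CD3-only cells, a ratio of 1.08 (0.576 to 2.03). NK cells ran the other way, at 0.0523% in YO2 (9 cells, 0.0239% to 0.0992%) and 0.451% in YO1 (88 cells, 0.362% to 0.556%), so that their share was 8.63-fold higher in YO1 (4.34 to 19.5). B cells picked by at least 2 UMIs of Cd79a and Ms4a1 numbered 910 in YO2 and 402 in YO1. These ratios compare 2 libraries whose mix of tissues and ages cannot be told apart.

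The alpha chain gene Trac and the beta chain gene Trbc2 were higher in TCR+ T cells than in NK cells and in all other cells. The statement does not cover Trbc1, the other beta chain gene. Trbc1 gave 85 UMIs in 34 of the 94 TCR+ cells, and 1 UMI in YO2 and 47 in YO1 of NK cells. The TCR+ sums held 240564 UMIs in YO2 and 92789 in YO1, the NK sums 26943 and 160499. Trac, Trbc2, Thy1 and Lck are among the genes whose UMIs chose the TCR+ cells. Their levels there follow in part from that choice. Trac gave 193 UMIs (802 CPM) in YO2 and 91 (981 CPM) in YO1 of TCR+ T cells, against 1 (37.1 CPM) and 4 (24.9 CPM) in NK cells and 0.879 and 0.358 CPM in the rest. It was seen in 49 of 57 TCR+ cells in YO2 and 29 of 37 in YO1, against 0 of 910 and 1 of 402 B cells, which should lack it; median depths were 3457 and 1986 UMIs in TCR+ cells and 3553.5 and 1509 in B cells. Trac was thus high in TCR+ cells of both pools, 21.6-fold above NK cells in YO2 (3.83 to 858) and 39.4-fold in YO1 (14.9 to 148). Trbc2 had 1210 CPM in YO2 and 1498 CPM in YO1 of TCR+ T cells, and was 8.15-fold above NK cells in YO2 (3.15 to 30.1) and 7.07-fold in YO1 (4.83 to 10.6). Thy1, a surface glycoprotein of T cells and some NK cells, had 1052 and 1401 CPM in TCR+ T cells, 28.3-fold above NK cells in YO2 (5.04 to 1124, from 1 UMI in NK cells) and 6.25-fold in YO1 (4.29 to 9.30). Lck, the kinase that starts TCR signalling, did not part the classes: its ratio of TCR+ T cells to NK cells was 1.18 in YO2 (0.708 to 2.12) and 1.16 in YO1 (0.839 to 1.61).

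Across all genes, a gene was called where its CPM differed at least 2-fold the same way in both pools, among genes with at least 30 UMIs over both sums in each pool, with a sum of 0 set to 3 UMIs. TCR+ T cells over NK cells had 1285 such genes, of which 50 (3.89%) were higher and 39 (3.04%) lower, with medians of -0.11 in YO2 and -0.12 in YO1 on the log2 scale. Of 20 TCR-list genes, 12 could be measured and 7 were higher, among them Cd3e, Trac, Trbc2 and Thy1, and none lower, with medians of 1.77 and 2.13; the choice of the TCR+ cells used all these genes. By the CD3 rule with all 139 T cells, 58 of 1628 genes (3.56%) were higher than in NK cells and 62 (3.81%) lower. Scaled with TMM factors, which assume that most genes are alike, that contrast gave 123 higher and 23 lower, and with DESeq2 size factors 117 and 23. The median of all its genes stood at -0.07 in YO2 and -0.10 in YO1 by total UMIs and at 0.57 and 0.10 with TMM; no named gene of this contrast, or of YO2 over YO1, changed sign with either scaling. With all 139 cells, 8 of 12 neutrophil markers measured were higher in T cells than in NK cells (S100a8, S100a9, Ly6g, Mmp8, Ltf, Ngp, Camp and Lcn2), and with the 94 TCR+ cells 0 of 11 were called. Cd74 and H2-Aa, MHC class II genes of antigen-presenting cells, were likewise among the 58 genes higher with all 139 cells, and with the TCR+ cells the pools went opposite ways. Cd74 gave 243 UMIs (1010 CPM) in YO2 and 2 (21.6 CPM) in YO1 of TCR+ T cells, against 5 (186 CPM) and 39 (243 CPM) in NK cells, log2 ratios of 2.44 in YO2 and -3.49 in YO1. H2-Aa gave 121 and 2 UMIs, against 2 and 8 in NK cells, log2 ratios of 2.76 and -1.21.

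**Figure D2:**
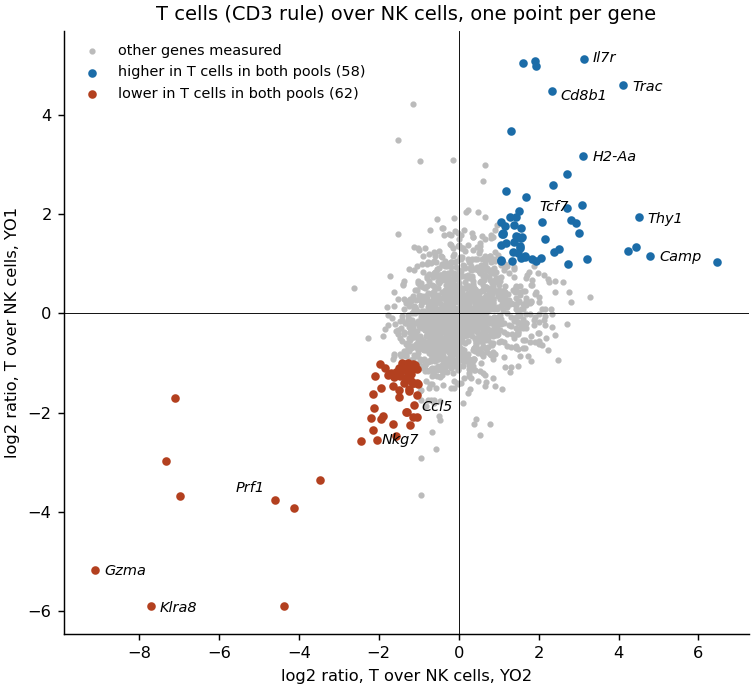
Each point is 1 of 1628 genes, with its log2 CPM ratio of all T cells of the CD3 rule over NK cells in YO2 across and in YO1 upwards; blue points are the 58 genes higher and red points the 62 genes lower in T cells of both pools. Trac, Thy1 and Il7r lie high in both pools, with Camp of neutrophils and H2-Aa of MHC class II, and Gzma, Klra8 and Prf1 lie low in both.

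Most TCR+ cells that could be typed carried a CD8 coreceptor. Cd8b1, the beta chain of CD8, gave 167 UMIs (694 CPM) in YO2 and 63 (679 CPM) in YO1 of TCR+ T cells. In NK cells of either pool it gave 0. With those sums of 0 replaced as for the calls above, Cd8b1 was 6.23-fold higher in T cells of YO2 and 36.3-fold in YO1. More NK cells were summed in YO1. Cd8a, the alpha chain, gave 345 and 388 CPM against 0 UMIs in NK cells of both pools. A UMI of Cd8a or Cd8b1 without Cd4 was seen in 42 of 57 TCR+ cells in YO2 (73.7%, 60.3% to 84.5%) and 20 of 37 in YO1 (54.1%, 36.9% to 70.5%). Cd4 without CD8 was seen in 9 of 57 in YO2 and 2 of 37 in YO1, both in 1 and 1, and neither in 5 and 14. A UMI of Cd8a or Cd8b1 with or without Cd4 was seen in 43 of 57 and 21 of 37. With each cell thinned to 500 UMIs, the counts were 22 of 57 (38.6%, 26.0% to 52.4%) and 11 of 37 (29.7%, 15.9% to 47.0%), and the intervals overlap. Over all 139 cells of the CD3 rule the CD8 share was 53.2% in YO2 and 33.3% in YO1.

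Gamma-delta transcripts were seen in 1 of 57 TCR+ cells in YO2 and 11 of 37 in YO1 (29.7%, 15.9% to 47.0%), and 3 of those 11 had no Trac. Thinned to 500 UMIs the counts were 0 of 57 and 3 of 37. A gamma-delta transcript does not make a gamma-delta T cell here: 24 of 88 NK cells in YO1 also had one, 21 of them Trdc with 27 UMIs in all, and 28 of 88 had Trbc1, while 0 of 9 and 1 of 9 did in YO2.

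**Figure D3:**
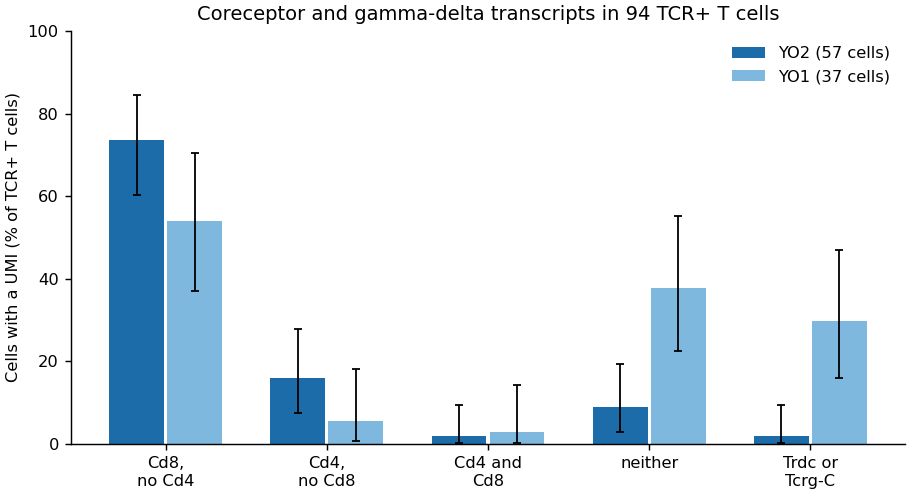
Bars give the percentage of TCR+ T cells with a Cd8a or Cd8b1 (labelled Cd8) or Cd4 UMI, both or neither, and with a gamma-delta (Trdc or Tcrg-C) UMI, YO2 left of YO1, and lines are exact 95% intervals. Cd8 without Cd4 is the commonest of the 4 coreceptor classes in both pools, at 73.7% in YO2 and 54.1% in YO1.

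Ccl5, Nkg7 and Ly6c2 were seen in most CD8 cells and in no CD4 cell. TCR+ cells were put in exclusive sets, 57 with Cd8a or Cd8b1 and neither Cd4 nor a gamma-delta transcript, 11 with Cd4 alone, 12 with a gamma-delta transcript, 12 with none of these and 2 others. Ccl5 (RANTES), a chemokine stored by memory CD8 T cells and NK cells, was seen in 45 of the 57 CD8 cells with 1252 UMIs and in 0 of the 11 CD4 cells. Nkg7, a granule membrane protein of killer cells, was seen in 52 of 57 and 0 of 11, and Ly6c2, a surface antigen of memory CD8 cells and monocytes, in 45 of 57 and 0 of 11. Of the 12 cells with a gamma-delta transcript, 8 had Ccl5, 8 had Nkg7 and 3 had Ly6c2. Of the 12 in the set with none of the lineage transcripts, 3, 3 and 4 did. The CD8 cells held 233545 UMIs and the 11 CD4 cells 32038, and the part of depth in these counts was not tested. Il2rb, the beta chain of the receptors for IL-2 and IL-15, was seen in 50 of 57 and 4 of 11, and Il7r, the IL-7 receptor, in 51 of 57 and 6 of 11. Foxp3, the regulatory T cell factor, was seen in 2 CD4 cells with 8 UMIs, all in YO2. No UMI of Ifng, Il4, Il17a or Pdcd1 was found in TCR+ cells.

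Ccl5 split the CD8 cells into 45 with and 12 without it. Pooled over YO2 and YO1, the 45 with Ccl5 had 1095 CPM of Il2rb, 1924 CPM of Ly6c2 and 799 CPM of Nkg7. The 12 without had 292, 421 and 356 CPM. Within YO1 alone Ly6c2 was close, at 924 CPM with Ccl5 and 855 CPM without, seen in 8 of 11 and 3 of 5 cells. In YO2 it was at 2130 CPM with Ccl5 and 0 CPM without. Cxcr3, a chemokine receptor of memory cells, was at 133 CPM and Il18r1, the IL-18 receptor, at 227 CPM in cells with Ccl5, and both were at 0 UMIs in cells without. Genes of naive T cells ran the other way: Lef1, a transcription factor, was at 133 CPM with Ccl5 and 648 CPM without, and Igfbp4 at 9.87 and 713 CPM, seen in 1 of 45 and 6 of 12 cells. Ccr7, the lymph node homing receptor, was at 88.8 and 421 CPM pooled; within YO1 alone its level was higher with Ccl5, at 173 against 132 CPM. Cells with Ccl5 were deeper, at a median of 3802 UMIs against 2281, and the part of depth in these shares was not tested.

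Ccl5 was high in both lymphocyte classes. It gave 4477 CPM in YO2 and 3643 CPM in YO1 of TCR+ T cells, and 7980 and 9452 CPM in NK cells, against 16.3 and 11.8 CPM in the rest and 0 UMIs in CD3-only cells. It was seen in 36 of 57 and 21 of 37 TCR+ cells and in 9 of 9 and 87 of 88 NK cells, against 7 of 910 and 1 of 402 B cells. NK cells held more in both pools, with a ratio of TCR+ T cells to NK cells of 0.561 in YO2 (0.484 to 0.653) and 0.385 in YO1 (0.342 to 0.434). Nkg7 ran likewise, at 553 CPM in YO2 and 830 CPM in YO1 of TCR+ T cells and 1967 and 2579 CPM in NK cells, 3.56-fold and 3.11-fold lower in T cells.

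Il7r and Tcf7, genes of naive and memory T cells, were higher in TCR+ T cells than in NK cells. Il7r gave 291 UMIs (1210 CPM) in YO2 and 66 (711 CPM) in YO1 of TCR+ T cells, against 0 and 2 UMIs in NK cells. It was 10.9-fold higher in YO2 with the 0 set to 3 UMIs, and 57.1-fold in YO1 (15.2 to 481). Tcf7, the TCF-1 factor of naive and memory T cells, was at 395 and 550 CPM in TCR+ T cells, 10.6-fold above NK cells in YO2 (1.86 to 425) and 7.35-fold in YO1 (3.87 to 15.1). Of 10 genes of the naive and recirculating list, 6 could be measured and Il7r and Tcf7 were higher, none lower. Among 14 cytokine and chemokine genes, 4 could be measured: Ltb, a lymphotoxin chain, was higher in TCR+ T cells and Ccl3 and Ccl4 lower. Among 12 cytokine receptor genes, 6 could be measured: Il7r was higher and Il18rap, an IL-18 receptor chain, lower, by 3.43-fold in YO2 (1.48 to 7.36) and 6.71-fold in YO1 (2.71 to 21.4). Some integrin genes also parted the classes, since Itgam, Itgal, Itgb2 and Itga4 were lower in TCR+ T cells among 11 trafficking genes measured of 21. Itgb7, another integrin gene measured, was not among the lower genes. Itga4, which pairs into the VCAM-1 receptor, was 4.13-fold lower in YO2 (2.46 to 6.76) and 3.32-fold lower in YO1 (2.06 to 5.64).

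NK cells were marked by granzyme A. Gzma, a gene of the rule, gave 5 UMIs (20.8 CPM) in YO2 and 44 (474 CPM) in YO1 of TCR+ T cells, against 245 (9093 CPM) and 1679 (10461 CPM) in NK cells and 1.0 and 1.48 CPM in the rest. An NK cell had a median of 24 Gzma UMIs in YO2, between 10 and 58, and 19 in YO1, between 0 and 59. Its T cell UMIs sat in few cells, 1 in YO2 and 3 in YO1. Gzma was seen in 30 of 910 B cells in YO2 and 4 of 402 in YO1, a background of 3.30% and 0.995%. Prf1 gave 17 UMIs (70.7 CPM) and 10 (108 CPM) in TCR+ T cells, against 37 (1373 CPM) and 143 (891 CPM) in NK cells, 19.4-fold lower in T cells of YO2 (10.7 to 36.8) and 8.27-fold lower in YO1 (4.37 to 17.6). Gzmb, a granzyme that starts apoptosis, gave 1262 and 1358 CPM in NK cells and was 101-fold lower in TCR+ T cells of YO2 (31.8 to 515, from 3 UMIs in T cells) and 7.88-fold lower in YO1 (4.74 to 14). Of 13 cytotoxic granule genes, 7 could be measured in TCR+ T cells over NK cells and Gzma, Gzmb, Prf1 and Nkg7 were lower, none higher, with medians of -1.83 and -1.64 on the log2 scale.

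The promoters of the 3 killing genes are shown because they were high together in NK cells, with capitals for the same letters as above.
Gzma, chr13:113100982-113101231, - strand: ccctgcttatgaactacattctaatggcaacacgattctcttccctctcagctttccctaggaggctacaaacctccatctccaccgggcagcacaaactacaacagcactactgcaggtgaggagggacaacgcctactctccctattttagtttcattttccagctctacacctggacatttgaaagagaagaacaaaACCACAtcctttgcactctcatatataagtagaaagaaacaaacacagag
Gzmb, chr14:56262335-56262584, - strand: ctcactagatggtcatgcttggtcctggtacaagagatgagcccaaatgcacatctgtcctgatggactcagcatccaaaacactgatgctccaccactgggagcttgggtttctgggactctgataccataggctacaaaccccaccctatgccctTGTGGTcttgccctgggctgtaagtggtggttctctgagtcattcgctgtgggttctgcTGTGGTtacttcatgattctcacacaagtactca
Prf1, chr10:61297586-61297835, + strand: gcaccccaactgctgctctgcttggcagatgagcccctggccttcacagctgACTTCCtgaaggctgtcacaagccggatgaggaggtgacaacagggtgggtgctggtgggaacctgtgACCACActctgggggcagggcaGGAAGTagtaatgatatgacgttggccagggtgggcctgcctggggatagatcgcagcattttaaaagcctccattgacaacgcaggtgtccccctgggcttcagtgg
A RUNX match begins 50 bases before the start of Gzma, 93 and 34 bases before that of Gzmb and 130 bases before that of Prf1, whose window also holds ETS matches at 198 and 108 bases. Of 12 granule genes with a window, 8 hold the RUNX letters (Gzma, Gzmb, Gzmc, Gzmm, Prf1, Nkg7, Srgn and Lamp1), and so do 8 of 14 genes of the NK receptor and adaptor list, against 2 of 11 TCR-list genes, 1 of 11 Ly49 genes and 15.9% of all 27025 genes. Windows without these letters say nothing of the factor.

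**Figure D4:**
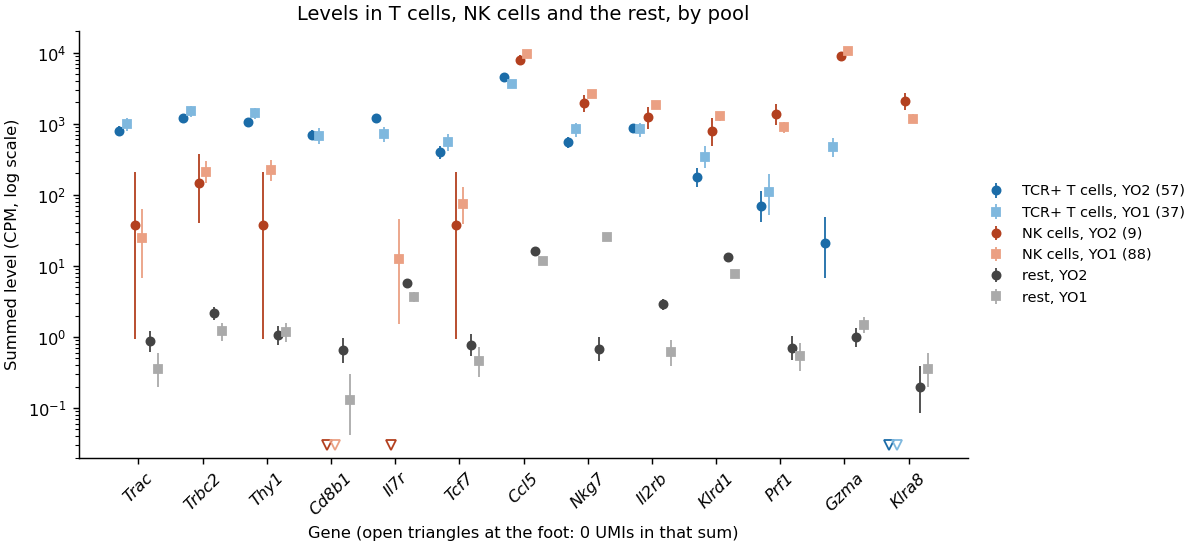
Points give the CPM, on a log axis, of 13 genes in TCR+ T cells (57 in YO2, 37 in YO1), NK cells (9 and 88) and the rest in each pool, with exact 95% counting intervals and open triangles for sums of 0. Gzma, Prf1 and Klra8 are highest in NK cells, Trac and Cd8b1 in TCR+ T cells, and Ccl5 is high in both.

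Klrd1 and the adaptors Fcer1g and Tyrobp were lower in TCR+ T cells than in NK cells. Klrd1 (CD94), the partner of the NKG2 receptors, was at 179 CPM in YO2 and 345 CPM in YO1 of TCR+ T cells and 779 and 1265 CPM in NK cells, 4.36-fold and 3.67-fold lower in T cells. Fcer1g and Tyrobp (DAP12), which neutrophils also express, were at 1039 and 733 CPM and at 1056 and 701 CPM in TCR+ T cells, against 4305 and 2636 CPM and 3712 and 2075 CPM in NK cells. Ncr1, a gene of the rule, was at 334 CPM in YO2 and 885 CPM in YO1 of NK cells, against 0 and 2 UMIs in TCR+ T cells. Of 18 NK receptor and adaptor genes, 4 could be measured, and Klrd1, Fcer1g and Tyrobp were lower in TCR+ T cells, with medians of -1.93 in YO2 and -1.71 in YO1 on the log2 scale. Of the rule's NK genes, at least 3 UMIs were found in 6 of 94 TCR+ T cells, 1 in YO2 and 5 in YO1.

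The Ly49 genes, which lie side by side on chromosome 6, also marked NK cells. Klra8 (Ly49H), an activating receptor for a cytomegalovirus protein, lies at chr6:130115226-130129898. It gave 0 UMIs in TCR+ T cells of either pool, against 56 (2078 CPM) in YO2 and 190 (1184 CPM) in YO1 of NK cells. With the T cell sums of 0 replaced as for the calls above, NK cells were 167-fold higher in YO2 and 36.6-fold higher in YO1. Klra4 (Ly49D), another activating receptor, at chr6:130043731-130067271, gave 14 and 10 UMIs in TCR+ T cells, against 22 (817 CPM) and 160 (997 CPM) in NK cells. Klra9, at chr6:130178675-130193112, gave 15 and 2 UMIs in TCR+ T cells, against 28 (1039 CPM) and 127 (791 CPM) in NK cells. Of 11 Ly49 genes, 4 could be measured and Klra4, Klra8 and Klra9 were lower in TCR+ T cells, with medians of -3.93 in YO2 and -4.20 in YO1. These genes are near-identical copies, so reads may have been split among them and single members are uncertain.

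More than 1 Ly49 gene was counted in most NK cells. An NK cell had UMIs of a median of 3 Ly49 genes in YO2 and 2 in YO1, and at most 6 in either pool. At least 2 were seen in 8 of 9 NK cells in YO2 and 69 of 88 in YO1, and none in 0 and 2; 1 and 17 cells had 1. At least 2 were also counted in 17 of 57 and 2 of 37 TCR+ T cells, and in 14 of 910 (1.54%) and 6 of 402 (1.49%) B cells, which should lack them. Klra8 was seen in 7 of 9 and 50 of 88 NK cells, Klra9 in 5 and 51, Klra4 in 5 and 42, Klra7 in 3 and 39, Klra3 in 4 and 24 and Klra1 in 1 and 10. Klra8 and Klra4, which both mark activating receptors, were found together in 32 of the 97 cells, Klra8 alone of the pair in 25, Klra4 alone in 15 and neither in 25. Klra4 and Klra9 were found together in 20, Klra4 alone in 27, Klra9 alone in 36 and neither in 14. Thinned to 500 UMIs, Klra8 was seen in 6 of 9 cells in YO2 and 30 of 87 in YO1, so cells without a UMI of it may lie below the depth needed to detect it.

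**Figure D5:**
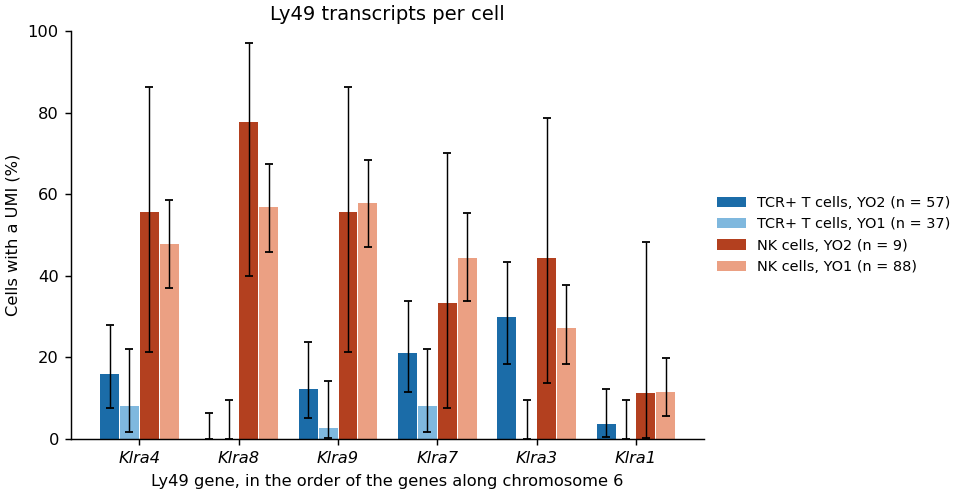
Bars give the percentage of TCR+ T cells (blue) and NK cells (red) with a UMI of each of 6 Ly49 genes, YO2 left of YO1, and lines are exact 95% intervals. In NK cells of YO1, Klra8 and Klra9 are seen in 50 and 51 of 88 cells, Klra8 is in no TCR+ T cell, and the 9 cells of YO2 leave wide intervals.

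Klrg1 and Cma1, markers of late NK maturation, were each seen in more NK cells than Cd27, a marker of an early stage. Klrg1, a receptor of mature NK cells, or Cma1, a mast cell protease that mature mouse NK cells also express, without the early marker Cd27 was seen in 8 of 9 NK cells in YO2 and 42 of 88 in YO1. Cd27 without either was seen in 0 and 5 cells, Cd27 with one of them in 0 and 2, and none of these genes in 1 and 39. Itgam, which encodes CD11b, a protein used in the sort, was seen in 7 of 9 and 46 of 88 NK cells. Among other genes listed for NK maturation, Cd7 gave 8 UMIs in YO2 and 88 in YO1 of NK cells, a YO2 to YO1 ratio in CPM of 0.542 (0.227 to 1.11). Emb gave 18 and 25, a ratio of 4.29 (2.20 to 8.18), and Ly6c2 44 and 125, a ratio of 2.10 (1.45 to 2.98). Genes of tissue-resident type 1 innate lymphoid cells were rare: Itga1 was seen in 1 and 3 NK cells, Cxcr6 in 0 and 1, Il7r in 0 and 1 and Tnfsf10 in 0 and 2. Eomes, the factor of conventional NK cells, was seen in 4 of 9 and 43 of 88. Among 12 transcription factors, 4 could be measured in TCR+ T cells over NK cells, and Id2 and Irf8 were lower in T cells. Irf8 was 15.4-fold lower in YO2 (6.97 to 35.9) and 8.60-fold lower in YO1 (4.23 to 20.4).

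The genes behind the sort were read in the same cells. Itgam was at 245 CPM in YO2 and 183 CPM in YO1 of TCR+ T cells, 742 and 579 CPM in NK cells and 541 and 757 CPM in the rest. Ly6g gave 56 and 10 UMIs in TCR+ T cells and 2 and 13 in NK cells. In TCR+ cells with under 1% of S100a8 and S100a9, Ly6g gave 3 UMIs in 2 of 40 cells in YO2 and 1 UMI in 1 of 29 in YO1, so nearly all of it lay in the 17 and 8 TCR+ cells with 1% or more. Those cells were deeper, with medians of 5928 UMIs in YO2 and 4178.5 in YO1, against 2896 and 1894 below 1%. Ly6c2, of the same antigen family as Ly6g, was at 1567 and 927 CPM in TCR+ T cells, 1633 and 779 CPM in NK cells and 224 and 609 CPM in the rest. The 12 neutrophil markers together took 3.73% of UMIs in YO2 and 3.33% in YO1 of TCR+ T cells, 14% and 16.9% of CD3-only cells, 1.57% and 3.78% of NK cells and 4.76% and 11.3% of the rest. Of these, 3 were at 0 in the NK cells of YO2. Markers of monocytes and macrophages, which include Lyz2 and Ly6c2, summed to 7229 CPM in YO2 and 3891 CPM in YO1 of TCR+ T cells, 11394 and 5097 CPM in NK cells and 10518 and 14919 CPM in the rest, and 5 of the 10 were at 0 in TCR+ cells of YO1 and in NK cells of YO2. The 8 B cell markers summed to 187 and 151 CPM in TCR+ T cells and 111 and 43.6 CPM in NK cells, against 1196 and 658 CPM in the rest. All 5 basophil and mast cell and all 4 erythroid markers were at 0 in TCR+ T cells of both pools. The part of these transcripts in the results was not tested.

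Against the rest of the cells, both classes stood out by lymphocyte genes and by what they lacked. Keeping genes with at least 10 UMIs in the member sum or expected there, a requirement added after the values were seen, TCR+ T cells over the rest had 2137 genes, 375 (17.5%) higher and 354 (16.6%) lower. All 14 measured genes of the TCR list were higher, with medians of 8.13 in YO2 and 9.07 in YO1 on the log2 scale, against -0.02 and 0.06 over all genes. UMIs of this same list chose the TCR+ cells, so that result follows from the choice. CD3-only cells over the rest had 990 genes, of which 10 (1.01%) were higher and 23 (2.32%) lower. NK cells over the rest had 614 genes, 84 (13.7%) higher and 106 (17.3%) lower. All T cells of the CD3 rule over the rest had 2990 such genes, 309 (10.3%) higher and 170 (5.69%) lower. Without that requirement and by the CD3 rule the counts were 989 of 11726 genes (8.43%) higher and 343 (2.93%) lower in T cells, and 985 of 11713 (8.41%) and 254 (2.17%) in NK cells; they were 1406 of 11722 (12%) and 625 (5.33%) in TCR+ T cells, and 162 of 11694 (1.39%) and 152 (1.3%) in CD3-only cells. TMM factors turned these to 605 and 771 in T cells and to 388 and 749 in NK cells, and DESeq2 size factors to 516 and 550 in NK cells.

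Il2rb was a shared mark, at 861 CPM in YO2 and 830 CPM in YO1 of TCR+ T cells and 1225 and 1863 CPM in NK cells, against 2.88 and 0.613 CPM in the rest. NK cells over the rest were higher in 6 of 7 measured granule genes (Gzma, Gzmb, Prf1, Nkg7, Serpinb6b and Serpinb9) and lower in Srgn, the proteoglycan of granules that neutrophils also make. They were higher in the cytokine receptor genes Il2rb, Il2rg, Il18r1, Il18rap and Ifngr1 and lower in Il6ra. TCR+ T cells were higher than the rest in Prf1, Nkg7 and Ctsw and lower in Srgn. H2-K1, an MHC class I gene, was 3.18-fold higher in NK cells than in the rest of YO2 (2.54 to 3.92) and 3.45-fold in YO1 (3.17 to 3.75). Immediate early genes were lower in TCR+ T cells than in the rest in 8 of 11 measured (Fos, Junb, Fosb, Egr1, Dusp1, Nr4a1, Zfp36 and Btg2), and in NK cells in 3 of 11 (Fos, Egr1 and Zfp36). Of neutrophil markers, 10 of 11 were lower in NK cells and 4 of 12 in TCR+ T cells (Retnlg, Cxcr2, Csf3r and Mmp9).

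Between the pools, 6 of 12 immediate early genes measured in TCR+ T cells and 8 of 9 in NK cells were at least 2-fold higher in YO2. These genes, such as Fos and Nr4a1, are switched on within minutes of stimulation. Fos was at 1197 CPM in YO2 and 507 CPM in YO1 of TCR+ T cells, 1113 and 268 CPM in NK cells and 3396 and 1739 CPM in the rest. The YO2 to YO1 ratio was 2.36 in TCR+ T cells (1.73 to 3.29), 4.16 in NK cells (2.52 to 6.78) and 1.95 in the rest. Nr4a1, a target of antigen receptor signalling, was at 540 and 226 CPM in TCR+ T cells, 1151 and 93.5 CPM in NK cells and 1132 and 622 CPM in the rest. Its ratio was 2.39 in TCR+ T cells (1.5 to 3.99), 12.3 in NK cells (6.45 to 24.5) and 1.82 in the rest. Of 12 immediate early genes measured in TCR+ T cells, 6 were at least 2-fold higher in YO2 (Fos, Fosb, Egr1, Nr4a1, Zfp36 and Klf6), against 148 of all 1911 genes (7.74%), and of 9 in NK cells 8 were, against 89 of 1206 (7.38%). In the rest 2 of 12 were, against 918 of 13480 genes (6.81%; 1282, or 9.51%, were lower), with a list median of 0.83 on the log2 scale beside 1.0 in TCR+ T cells and 1.86 in NK cells. Some myeloid genes moved the same way and others did not. The monocyte and macrophage markers, which include Ly6c2, summed to 7229 CPM in YO2 and 3891 CPM in YO1 of TCR+ T cells and to 11394 and 5097 CPM in NK cells. In NK cells the YO2 to YO1 ratio was 0.491 for Ccr2 of that list (0.191 to 1.06). It was 0.339 for Retnlg (0.233 to 0.479) and 0.264 for Lcn2 (0.146 to 0.442). Ngp, Camp and Ltf gave 0 UMIs in NK cells of YO2 and 867, 257 and 229 in those of YO1. Lyz2, the lysozyme of myeloid cells, had YO2 to YO1 ratios of 1.94 in TCR+ T cells (1.68 to 2.24), 2.46 in NK cells (2.10 to 2.87) and 0.654 in the rest, C5ar1 of 2.39 (1.40 to 4.34) and Clec4e of 3.09 (1.48 to 7.45) in TCR+ T cells, and Csf1r of 4.17 (1.95 to 8.68) in NK cells. The part of these transcripts in the immediate early values, and a difference between classes, was not tested.

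Within TCR+ T cells the other genes among the 148 higher in YO2 were led by those of antigen-presenting and plasma cells, and 49 of 1911 genes (2.56%) were lower. The MHC class II genes Cd74, H2-Aa, H2-Ab1 and H2-Eb1 gave 243, 121, 123 and 68 UMIs in YO2 and 2, 2, 3 and 2 in YO1, ratios of 46.9 (12.8 to 389), 23.3 (6.32 to 195), 15.8 (5.29 to 77.7) and 13.1 (3.49 to 110.5). In YO2 the UMIs of Cd74 came from 14 of 57 TCR+ cells, and in the rest the ratio of Cd74 was 1.73. Klra3, a Ly49 gene, gave 52 UMIs in 17 of 57 cells in YO2 and 0 UMIs in the 37 cells of YO1. With that 0 set to 3 UMIs it was 6.69-fold higher in YO2, and its exact interval began at 5.25. After thinning to 500 UMIs Klra3 was seen in 4 of 57 cells (7.02%) and 0 of 37. Ly6a (Sca-1), an interferon-responsive surface antigen, was at 466 and 162 CPM, a ratio of 2.88 (1.67 to 5.32), and Il6ra, the IL-6 receptor, had a ratio of 4.35 (2.02 to 11.2). Cxcr6, a receptor of T cells in liver and other tissues, ran the other way, at 125 CPM in YO2 and 431 CPM in YO1, a ratio of 0.289 (0.174 to 0.476). Trac and Ccl5 were close, with ratios of 0.818 and 1.23. Igkc, an antibody light chain of plasma and B cells, gave 161 UMIs in 49 of 57 TCR+ cells in YO2 and 0 UMIs in YO1, where the rest stood at 30520 CPM in YO2 and 2527 CPM in YO1 and 69.8% and 10.8% of its cells had it. By the CD3 rule with all 139 cells, 125 of 2526 genes (4.95%) were higher in YO2 and 67 (2.65%) lower.

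In NK cells 133 of 1206 genes (11%) were at least 2-fold lower in YO2, where only 9 cells were summed; TMM factors changed the split from 89 higher and 133 lower to 38 and 257, and DESeq2 size factors to 45 and 217. The median of all these genes was -0.03 by total UMIs, -0.38 with TMM and -0.31 with DESeq2. The chemokine genes Ccl3 and Ccl4, made by NK cells on activation, were at 1819 CPM in YO2 and 193 CPM in YO1 and at 1596 and 262 CPM, ratios of 9.42 (5.89 to 15.3) and 6.10 (3.89 to 9.56). In YO2 these UMIs came from 4 and 2 of the 9 cells. Xcl1, another NK chemokine, gave 1 UMI in YO2 and 63 in YO1, a ratio of 0.095 (0.0024 to 0.546). Ncr1 had a ratio of 0.378 (0.169 to 0.737) and Klra7 of 0.245 (0.0493 to 0.744). Klra8 at 1.76 (1.28 to 2.38) and Gzma at 0.869 (0.757 to 0.995) stayed within 2-fold. Ngp, a neutrophil granule gene, gave 0 UMIs in NK cells of YO2 and 867 in those of YO1, and Camp 0 and 257; S100a8 and S100a9 took at least 1% of UMIs in 3 of 9 and 18 of 88 NK cells.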

How the data were processed

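The 2 whole-transcriptome libraries, pools YO2 and YO1, were analysed as 2 samples. The deposited UMI counts per gene and cell, made by the authors from reads on mm10 with FASTQ files from BCL Convert 3.6.3 (per the submitters' processing notes and the labels), were used as they stood; for the aligner, annotation and strand setting, nothing is given in the sources used here. Libraries of sample tags and of antibody tags were not analysed here. Of 38072 barcodes, 505 in YO2 and 847 in YO1 with fewer than 200 UMIs, fewer than 100 genes or 20% or more mitochondrial UMIs were left out. UMIs were summed per pool and class over 21995 genes and divided by their total. A gene was called at a fold of 2, with 30 UMIs over both sums and a sum of 0 set to 3. Intervals are exact Poisson, Clopper-Pearson or conditional binomial. Scrublet called 1 cell in YO2 and 0 in YO1, so doublet calling did not work and no cell was removed. Alternatives used edgeR 4.0.16 (TMM) and DESeq2 1.42.0 (size factors), with Python 3.11.15 and R 4.3.3. The scripts were checked on simulated counts. Named genes are those of the rule, of the lists and the largest fold changes. The members and lists were chosen with earlier results of these data known. Sequences are RefSeq's for GRCm38.p6, and gene positions GENCODE M21's.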

Additional observations from a re-analysis of the deposited data

How the results depend on the processing

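Results rest on 1 library per pool and on few cells, 9 NK cells in YO2 above all, and no test was made. No paired analysis was possible because each pool is a single library with 1 replicate number and no result comes from a test. Depth limits shares of cells with a UMI, and copies of Ly49 genes may share reads. Requiring 4 NK UMIs or 500 UMIs per cell moved none of the 24 counts and shares that each gave. The cause of the changes below was not tested. Requiring 3 CD3 UMIs, leaving out cells with 1% or more of S100a8 and S100a9, and requiring 6 other TCR UMIs (chosen after seeing the data) gave, in that order, T cell shares of 0.285%, 0.244% and 0.331% in YO2 and 0.185%, 0.149% and 0.190% in YO1, CD8 shares of T cells of 73.5%, 66.7% and 73.7% in YO2 and 47.2%, 48.3% and 54.1% in YO1, and S100a8 and S100a9 at 2.44%, 0.115% and 2.18% of T cell UMIs in YO2 and 2.12%, 0.0877% and 1.68% in YO1. These were 3.34% and 4.84% with no change. T over NK gave 40, 31 and 39 lower genes, and T over the rest 607, 639 and 625. Without cells high in S100a8 and S100a9, NK cells were 0.359% of YO1, those genes took 0.0290% of NK UMIs in YO2 (1.16% with no change) and 0.0850% in YO1 (2.14%), T over the rest gave 1615 higher genes and YO2 over YO1 in T cells 37 lower. Without the top 6% of Scrublet scores the NK figure in YO1 was 1.22%. TMM and DESeq2 scaling gave 123 and 117 higher and 23 and 23 lower genes for T over NK, 388 and 516 higher and 749 and 550 lower for NK over the rest, and 38 and 45 higher and 257 and 217 lower for YO2 over YO1 in NK cells; TMM gave 605 higher and 771 lower for T over the rest. With no count filter, 487 genes were lower for T over NK, 1083 higher and 964 lower for YO2 over YO1 in T cells, and 1357 and 507 in NK cells. At a fold of 4 the counts, higher then lower, were 8 and 12 for T over NK, 246 and 24 for T over the rest, 272 and 32 for NK over the rest, 13 and 3 for YO2 over YO1 in T cells and 15 and 37 in NK cells. Requiring 10 UMIs (chosen after seeing the data) gave 309 and 170 for T over the rest and 84 and 106 for NK over the rest. Of named genes, 27 log2 values turned. For T over NK in YO1, Cd74 became -3.37, -3.05, -3.28 and -3.49 and H2-Aa -2.25, -1.88, -1.11 and -1.21 with 3 CD3 UMIs, without top Scrublet scores, without cells high in S100a8 and S100a9 and with 6 other TCR UMIs. With 6 other TCR UMIs Ifitm6 became -0.27 there. Without cells high in S100a8 and S100a9, Cxcl2 became -0.69, Ifitm6 -2.01 and Ly6g -0.20 in YO2, and Ifitm6 -0.70 and Ly6g -0.70 in YO1. For YO2 over YO1 in T cells, Ckap4 became 0.40 with 3 CD3 UMIs and 0.80 with 6 other TCR UMIs, which gave Mmp8 0.45. Without cells high in S100a8 and S100a9, Aldoa became 0.067, Lrg1 1.13, Mmp8 0.026, Ptgs2 -0.059, Pygl 0.68, Slc2a3 1.13 and Wfdc17 -0.46 in T cells, and the NK values of Camp, Ltf and Ngp became 1.70, 1.96 and 0.20; all 3 had 0 UMIs in YO2, set to 3, so the sign is no higher level there (Ngp and Camp had 17 and 6 UMIs in YO1). The other named values kept their sign, 488 close to the main value and 83 not.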
